A study of Mus musculus with 24 samples.

Results

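The 10 genes described here, Zscan2, Scml4, Rec8, St6galnac5, Apold1, Ccdc154, Car11, Myh7b, Hebp2 and Bach2, were chosen by their measured values: each had passed the test in at least 1 comparison within the Derlin-2 line of mice. They are 10 of the 22911 genes that the arrays could name and of the 16935 genes tested, and they were read by 13 probes. Because the Derlin-2 arrays selected them, their changes in those comparisons are given as a description without a test. What was tested is whether the same genes changed in the Derlin-1 line, and, for 4 of them, in the Derlin-2 comparison that shares no array with the selecting one.

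The derlins sit in the membrane of the endoplasmic reticulum (ER) and serve ER-associated degradation, by which misfolded proteins are moved out of the ER and destroyed. When misfolded proteins build up, cells switch on the unfolded protein response, a programme of chaperones and stress transcription factors. 4-phenylbutyrate (4PBA) is a small molecule used as a chemical chaperone to ease protein misfolding. The 10 genes do not form a pathway: they encode nuclear proteins, a meiotic chromosome protein, a glycosyltransferase, a vascular early-response protein, a myosin and others.

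Cerebellum of C57BL/6 mice aged 28 days was profiled on 24 single-colour arrays, 12 groups of 2. Knockouts (KO) were Derl1 or Derl2 flox/flox mice that also carried Cre recombinase under the nestin promoter, which is active in neural progenitors; controls were flox/flox mice, and Cre is named for the KO mice alone, so carrying Cre and losing the gene cannot be told apart. The 8 Derlin-2 arrays and the 8 numbered Derlin-1 arrays each held controls and KO with water as vehicle or with 4PBA at 200 mg/kg, injected into the peritoneum daily from day 14 to day 28. A further 8 Derlin-1 arrays carry letters in place of numbers; their arrays not labelled 4PBA name no vehicle and are called untreated. Each series of 8 arrays lay on a slide of its own, and within a slide position and group cannot be told apart. Nothing in the labels says that the arrays of a group came from separate mice, so p-values measure the spread between these arrays.

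A level below is a log2 intensity relative to the array's 75th percentile, so that 0 is a bright probe and each step of 1 is a 2-fold step in intensity; a change is a difference of such levels, and genes with an adjusted p below 0.05 are called (limma, Benjamini-Hochberg over all genes of the comparison). The SE of a change comes from a spread shared across all 12 groups. Levels of different genes are not compared, since probes differ in brightness. Arrays are named by group and replicate.

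The targeted gene did not mark every KO array. Derl1 lay between 0.76 and 1.22 on the 8 Derlin-1 control arrays. The numbered Derlin-1 KO arrays had 0.89 and 0.70 with vehicle and 0.94 and 0.88 with 4PBA, and the lettered ones 0.14 and 0.84 untreated and 0.64 and 0.93 with 4PBA, so 5 of the 8 KO arrays lay within the range of controls. Derl1 in Derlin-1 KO differed from control by -0.33 (SE 0.15, limma adjusted p 0.178) without 4PBA and by -0.13 (SE 0.15, limma adjusted p 0.772) with it. Whether its probe lies in the deleted part of the gene is not given in the sources used here, so it does not check the Derlin-1 labels. Derl2 on its brighter probe lay between 1.40 and 1.58 on the 4 Derlin-2 control arrays, at 0.18 and 0.24 in KO with 4PBA, and at 0.48 on KO vehicle 2, but at 1.72 on KO vehicle 1. The Derlin-2 array labelled KO vehicle 1 thus had a control's level of the targeted gene on this probe. A dimmer Derl2 probe, also well above background on all 24 arrays, is not given by array. Derl2 in Derlin-2 KO differed from control by -0.38 (SE 0.28, limma adjusted p 0.792) with vehicle and by -1.28 (SE 0.28, limma adjusted p 0.179) with 4PBA. Changes of the 10 genes that use KO vehicle 1 are given without it too. Values without it for some gene lists and some genes outside the 10 were added after seeing the data. Most chromosomal neighbours are given with it only. Of Derl3, a related derlin that was not targeted, the Derlin-1 array labelled KO 4PBA b had a level of -2.27, within the range of the 8 Derlin-1 controls (-3.14 to -1.69), whereas the other 7 KO arrays lay between -0.63 and 0.37. Both arrays keep their labels here. Across the 24 arrays 57.7% to 68.4% of probes were well above background and no spot was saturated. On the Derlin-2 slide the 4 arrays with 4PBA had 57.7% to 62.9% of probes well above background and 489 to 637 spots left out as outliers, and the 4 with vehicle 63.5% to 66.9% and 213 to 408, without overlap. The part of this in the changes between 4PBA and vehicle was not tested. All 10 Purkinje cell and all 9 granule neuron markers, which define cerebellum, were well above background on every array.

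In each of the 10 genes at least 1 group of 2 arrays lay above or below all the other 6 arrays of the Derlin-2 slide. In 2 genes a second group did so by a smaller gap, vehicle controls at the top in Myh7b (0.07) and controls with 4PBA at the top in Hebp2 (0.05). Apold1, Ccdc154, Car11 and Myh7b were lowest in Derlin-2 KO with vehicle. Zscan2 was highest in Derlin-2 KO with 4PBA. Scml4, St6galnac5 and Rec8 were highest in Derlin-2 controls with 4PBA. Hebp2 and Bach2 were lowest in Derlin-2 controls with vehicle. Each of the 4 Derlin-2 comparisons selected 4 of the 10 genes. Among all genes tested, 0.118% were called between Derlin-2 KO and control with vehicle, 0.136% between Derlin-2 KO and control with 4PBA, 0.13% between 4PBA and vehicle in Derlin-2 controls and 0.136% between 4PBA and vehicle in Derlin-2 KO, and nothing is read from the members' counts there.

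The promoters of the vehicle KO group are shown first, because Apold1, Car11 and Myh7b were low together on the same 2 arrays. They are the 250 bases before the RefSeq start on GRCm38.p6, 5′ to 3′ on the plus strand, with capitals for a CACGTG motif, the E-box bound by clock and other basic helix-loop-helix factors.
Apold1, chr6:134981751-134982000: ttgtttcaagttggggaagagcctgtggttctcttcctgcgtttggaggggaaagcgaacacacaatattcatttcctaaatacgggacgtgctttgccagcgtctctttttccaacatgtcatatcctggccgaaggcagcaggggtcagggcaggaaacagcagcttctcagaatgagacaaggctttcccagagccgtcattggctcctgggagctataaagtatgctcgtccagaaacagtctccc
Car11, chr7:45699554-45699803: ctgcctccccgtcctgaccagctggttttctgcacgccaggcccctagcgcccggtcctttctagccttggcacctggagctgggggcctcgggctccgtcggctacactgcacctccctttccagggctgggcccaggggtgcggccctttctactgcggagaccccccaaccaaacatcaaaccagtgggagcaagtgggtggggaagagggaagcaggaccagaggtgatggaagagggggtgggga
Myh7b, chr2:155610993-155611242: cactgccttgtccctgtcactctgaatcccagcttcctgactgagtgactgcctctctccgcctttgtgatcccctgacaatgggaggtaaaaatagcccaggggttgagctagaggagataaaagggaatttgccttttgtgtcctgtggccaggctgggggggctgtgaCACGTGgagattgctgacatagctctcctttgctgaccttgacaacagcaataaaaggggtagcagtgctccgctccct
Windows of 300 bases around the start were available for 7 of the 10 genes, 9 windows in all, and were searched on both strands. CACGTG was found in Myh7b alone, against 7.15% of 32851 promoter windows. No window of the 7 genes held TGACGTCA, the cAMP response element (1.79% of all windows), TGACGTGG, the core of the unfolded protein response element (0.676%), or TGATGCAA, an amino acid response element (0.895%). The GC content of the windows was 51.7% for Apold1, 64.7% for the Car11 window shown and 54.7% for Myh7b, against a median of 52.7% over all windows.

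Apold1 encodes an apolipoprotein L domain protein known as an early-response gene of endothelium. Its level was -3.83 and -3.92 on the Derlin-2 KO vehicle arrays, against -2.26 and -2.38 in vehicle controls, -2.72 and -2.45 in controls with 4PBA and -2.30 and -2.27 in KO with 4PBA. Both low arrays lay 1.12 below the lowest of the other 6 arrays on the slide and 0.54 below the lowest of the other 22 arrays of the study. KO differed from control with vehicle by -1.55 (SE 0.26), a 2.94-fold lower intensity, and 4PBA from vehicle in KO by 1.59 (SE 0.26). Leaving out any 1 array kept at least 96.3% of the first change, and without KO vehicle 1, the array with a control's Derl2, the changes were -1.60 and 1.63. Neither was called without that array, and the first was not called without any 1 of its 4 arrays. With normexp background correction, another way of removing local background, they were -1.0 and 0.99, and neither was called.

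In the Derlin-1 line Apold1 showed no such step. The numbered arrays ran from -3.30 to -2.22 with a median of -3.06, and the lettered from -2.63 to -1.86 with a median of -2.15. KO and control without 4PBA differed by -0.17 (SE 0.19, limma adjusted p 0.617), with 0.15 in the numbered series and -0.48 in the lettered one, and 4PBA in KO gave -0.06 (SE 0.19, limma adjusted p 0.979).

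On both Derlin-2 KO vehicle arrays the mean level of immediate early genes lay below the other 6 arrays of the slide, as Apold1 did. The mean level of endothelial markers lay above them. Over 23 immediate early genes, which neurons and vessels transcribe within minutes of a stimulus, the mean level was -0.47 and -0.42 on the KO vehicle arrays and 0.04 to 0.21 on the other 6. Between Derlin-2 KO and control with vehicle 18 of the 23 were lower and 5 higher, with a median change of -0.45 against -0.01 over all genes, yet none was called. With 4PBA against vehicle in Derlin-2 KO 19 were higher, with a median of 0.40 against -0.06, and again none was called. Without KO vehicle 1 the medians were -0.41 and 0.37, with none called. The largest changes of the list were those of Fos, a subunit of the AP-1 transcription factor, at -2.45 and 2.12 (limma adjusted p 0.354 and 0.364), and -2.21 and 1.88 without KO vehicle 1. Npas4, the activity-induced transcription factor of neurons, is named because it was among the 3 genes most like Apold1 on these arrays (r 0.73), which fixes its direction. It differed by -2.08 and 1.46 in the same comparisons, and by -1.45 and 0.83 without KO vehicle 1; it was not called. All 15 endothelial markers were measured on all arrays, and their mean level was -0.01 to 0.10 on the KO vehicle arrays and -0.20 to -0.04 on the other 6 arrays of the slide. Between Derlin-2 KO and control with vehicle 9 of the 15 were higher and 6 lower, with a median change of 0.05. Without KO vehicle 1 it was the reverse, 6 higher and 9 lower, with a median of -0.05. The part of early genes or of vessels in the level of Apold1 was not tested. In bulk tissue, fewer cells of a type and less RNA per cell cannot be told apart.

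Ccdc154 encodes a coiled-coil protein known from a toothless, osteopetrotic mouse mutant. Its level was -4.94 and -5.22 in Derlin-2 KO with vehicle, against -3.80 and -3.68 in vehicle controls, -3.85 and -3.74 in controls with 4PBA and -3.69 and -3.78 in KO with 4PBA. The low pair lay 1.09 under the rest of the slide, and 0.11 under every other array of the study. The changes were -1.34 (SE 0.18) for KO against control with vehicle and 1.34 (SE 0.18) for 4PBA in KO. Without KO vehicle 1 they were -1.48 and 1.48. With normexp background correction they shrank to -0.60 and 0.64, and neither was called. In all, the first lost its call in 2 and the second in 3 of 12 alternative settings.

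Ccdc154 was 1 of 2 genes of the 10 that were also called in the Derlin-1 line. Without 4PBA, Derlin-1 controls had -3.58 and -4.03 in the numbered and -2.96 and -3.33 in the lettered series, and KO had -4.19 and -4.21 and then -4.15 and -4.33. KO arrays lay below the controls of their own slide in both series. The change was -0.75 (SE 0.13, limma adjusted p 0.00433), made of -0.40 (numbered series) and -1.10 (lettered series). Under normexp it was -0.43 (limma adjusted p 0.00916). It was called on leaving out each of the 8 arrays in turn (-0.86 to -0.64) and in the lettered series alone (limma adjusted p 0.0187), but not in the numbered series alone (limma adjusted p 0.367).

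With 4PBA the 2 Derlin-1 series parted on Ccdc154. Numbered KO arrays with 4PBA had -4.83 and -4.78 and lettered ones -3.55 and -3.09. 4PBA against none in KO therefore gave -0.61 in the numbered series and 0.92 in the lettered one, and the average of 0.16 (SE 0.13, limma adjusted p 0.869) describes neither. Array b of the lettered pair (-3.09) had a control's level of Derl3, and its Ccdc154 lay between those of the lettered controls with 4PBA (-3.05 and -3.20). Without it the lettered series gave 0.69 and the average was 0.04. KO against control with 4PBA was -0.43 (SE 0.13, limma adjusted p 0.191). Without the array labelled KO 4PBA b it was -0.55 (limma adjusted p 0.0257).

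Car11 encodes a carbonic anhydrase-related protein of the brain that has lost catalytic activity. Its shift was the smallest of the 10. Levels were 0.85 and 0.62 in Derlin-2 KO with vehicle, 1.24 and 1.33 in vehicle controls, 1.33 and 1.34 in controls with 4PBA and 1.33 and 1.60 in KO with 4PBA. The KO vehicle arrays were 0.39 below the rest of the slide but overlapped the 8 numbered Derlin-1 arrays, which ran from 0.63 to 0.92. The change was -0.55 (SE 0.10), of which 79.6% was left without KO vehicle 2, and it was the called change nearest the threshold in that comparison, with Cmtm2a just outside. It was not called in 10 of 12 alternative settings, the replicate block among them. 4PBA against vehicle in Derlin-2 KO gave 0.73 (SE 0.10), of which at least 81.9% was left without any 1 array. Without KO vehicle 1 the changes were -0.66 and 0.84.

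In the Derlin-1 line Car11 differed between KO and control by -0.18 (SE 0.07, limma adjusted p 0.114) without 4PBA, -0.06 numbered and -0.30 lettered, and by -0.17 (SE 0.07, limma adjusted p 0.33) with 4PBA. Neither was called. Lettered untreated KO had 1.20 and 1.22 against 1.46 and 1.55 in controls, without overlap.

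Of 15 other carbonic anhydrases listed, 13 were tested. Car5a, a mitochondrial carbonic anhydrase, was the only one called in a Derlin-2 comparison, at -1.89 (SE 0.25, limma adjusted p 0.00637) for KO against control with 4PBA and -1.53 (SE 0.25, limma adjusted p 0.0194) for 4PBA in KO, or -1.88 without KO vehicle 1. In Derlin-1 KO without 4PBA 8 of the 13 were lower and 5 higher. Called there were 3, all lower, in a comparison where 10.6% of all genes were called: Car9 fell by 1.35, Car4 by 1.67 and Car15 by 0.46 on the log2 scale. The gene next to Car11, Dbp, encodes a clock-controlled transcription factor and had a change of -0.72 in Derlin-2 KO with vehicle (-0.76 without KO vehicle 1), not called. The 17 clock genes tested had a median change of -0.37 in that comparison (13 lower, none called; -0.40 without KO vehicle 1), and their mean level was 0.85 and 0.91 on the KO vehicle arrays against 1.03 to 1.30 on the rest of the slide. Whether time of day played a part was not tested.

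Myh7b encodes a slow myosin heavy chain. Levels were -2.64 and -2.79 in Derlin-2 KO with vehicle, -2.11 and -1.84 in vehicle controls, -2.46 and -2.32 in controls with 4PBA and -2.39 and -2.18 in KO with 4PBA. The low pair lay 0.18 under the rest of the slide, and overlapped the other slides. Vehicle KO differed from control by -0.74 (SE 0.12), and 81.8% of this was left without control vehicle 2, the array with the highest level. Without KO vehicle 1 it was -0.82. It was not called in 7 of 12 alternative settings, among them the replicate block, normexp, quantile normalization and the removal of control vehicle 2 or KO vehicle 2. With 4PBA, on arrays that took no part in the selection, KO and control differed by 0.11 (SE 0.12, limma adjusted p 1).

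Myh7b was the other gene called in the Derlin-1 line. Lettered KO untreated arrays had -2.91 and -2.70 against -2.12 and -2.07 in controls. Numbered KO vehicle arrays had -2.85 and -2.74 against -2.42 and -2.74, with the value -2.74 in both groups. The averaged change was -0.46 (SE 0.09, limma adjusted p 0.00602), -0.22 numbered and -0.71 lettered. It was called on leaving out each of the 8 arrays (-0.54 to -0.38) but not in the numbered series alone (limma adjusted p 0.498). With 4PBA it was 0.00 (SE 0.09, limma adjusted p 0.995). Skeletal muscle also uses myosin heavy chains. The mean level of 9 muscle markers was -2.78 and -1.47 on the Derlin-2 KO vehicle arrays, lower value first, and -2.84 to -2.47 on the other 6. Between KO and control with vehicle 7 of the 9 were higher and 2 lower, with a median change of 0.40. Without KO vehicle 1, 1 was higher and 8 lower, with a median of -0.09. The part of muscle in the level of Myh7b was not tested. Of 10 other myosin heavy chains tested, none was called in a Derlin-2 comparison, and in Derlin-1 KO without 4PBA 1 of the 10 was called, beside 10.6% of all genes: Myh3, an embryonic form, rose by 1.07 (SE 0.25, limma adjusted p 0.0152).

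**Figure D1:**
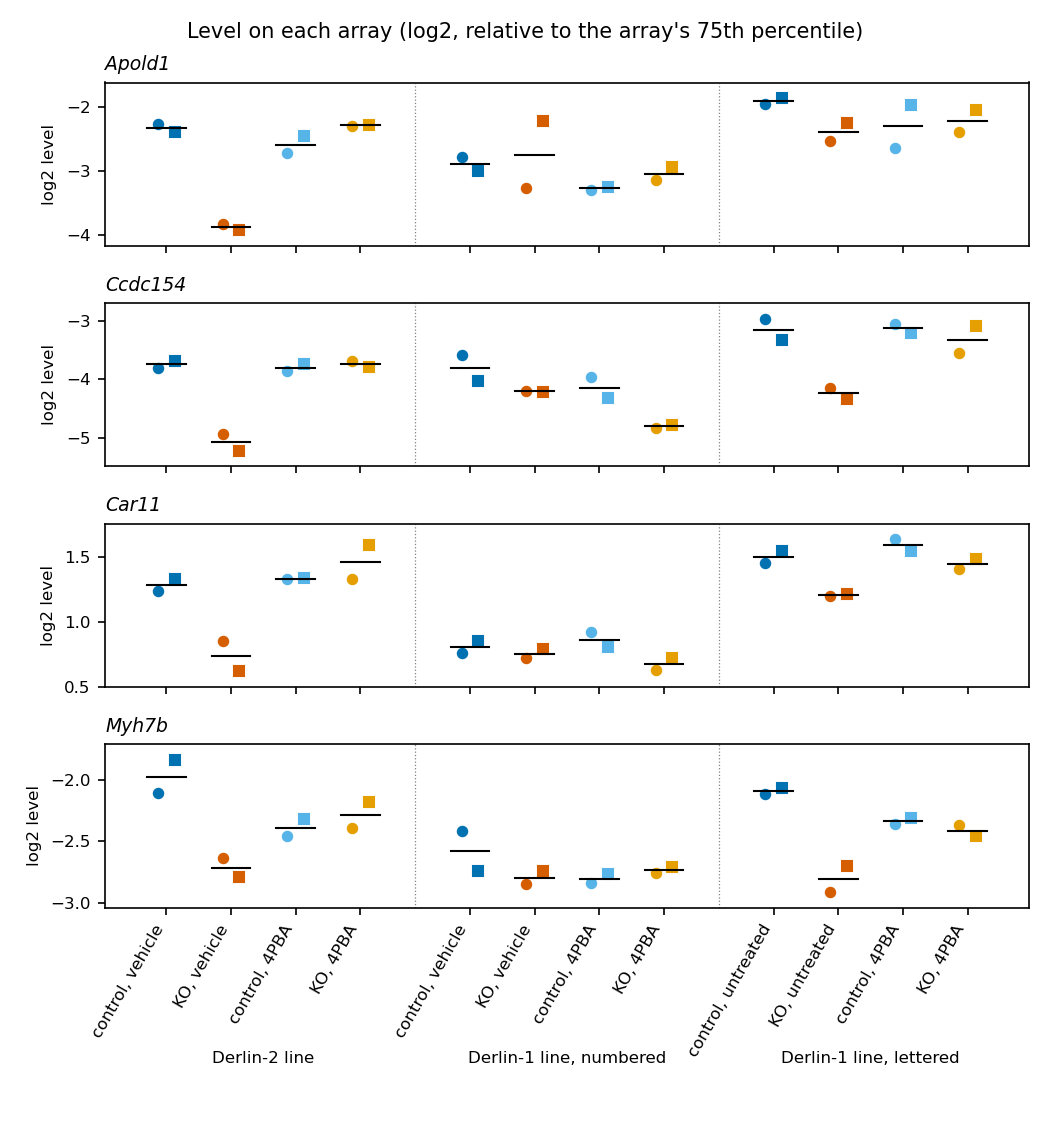
Levels of Apold1, Ccdc154, Car11 and Myh7b (log2 intensity relative to the array's 75th percentile) on 24 arrays in 12 groups, with circles for the first and squares for the second array of a group and a line at the group mean. The Derlin-2 KO vehicle pair is lowest on its slide in all 4 genes; untreated lettered Derlin-1 KO is also low in Ccdc154 (-4.15 and -4.33) and Myh7b (-2.91 and -2.70).

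Zscan2 encodes a zinc finger protein with a SCAN domain, a class of putative transcription factors. Levels were -2.05 and -2.23 in Derlin-2 KO with 4PBA, against -3.90 and -4.05 in vehicle controls, -4.02 and -4.39 in vehicle KO and -3.91 and -3.46 in controls with 4PBA. The pair lay 1.23 above every other array of the study, including all 16 Derlin-1 arrays (-4.50 to -3.79). 4PBA differed from vehicle in Derlin-2 KO by 2.07 (SE 0.22), a 4.19-fold higher intensity, and KO from control with 4PBA by 1.55 (SE 0.22). At least 91.2% and 85.4% of these changes were left without any 1 array, and without KO vehicle 1 the first was 2.25. The first was 1.30 with normexp background correction. With the Derlin-2 arrays fitted alone neither was called, and the second was also not called without control 4PBA 1 (1.32).

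The Derlin-1 counterparts of Zscan2 were 0.04 (SE 0.15, limma adjusted p 0.983) for 4PBA in KO and 0.00 (SE 0.15, limma adjusted p 0.996) for KO against control with 4PBA. The numbered series gave 0.02 and -0.01 and the lettered 0.06 and 0.02. No other of 18 SCAN zinc fingers was called in a Derlin-2 comparison. The nearest tested neighbours, Iqgap1 and Wdr73, had changes between -0.21 and 0.05 in the 4 Derlin-2 comparisons. The gene whose slide-centred levels were most like those of Zscan2, among 14265 compared, was 2810408A11Rik, with r 0.81 over 24 arrays, 0.97 over the 8 Derlin-2 arrays and -0.02 over the 16 Derlin-1 arrays.

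Scml4, a Polycomb-group protein related to fly Sex comb on midleg, had -1.79 and -1.34 in Derlin-2 controls with 4PBA. The other Derlin-2 arrays had -3.75 and -3.65 in vehicle controls, -3.60 and -3.50 in vehicle KO and -3.67 and -3.91 in KO with 4PBA. The high pair lay 1.71 above the slide's other arrays and 1.35 above all other 22. 4PBA against vehicle in controls gave 2.14 (SE 0.31), a 4.39-fold difference, and KO against control with 4PBA -2.22 (SE 0.31), and each kept at least 89.6% of its size without any 1 array. With normexp background correction they were 1.38 and -1.43. The first was not called in 4 of 12 alternative settings, with probes well above background on all arrays and without control vehicle 1, control vehicle 2 or control 4PBA 2.

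In Derlin-1 controls Scml4 differed between 4PBA and none by 0.09 (SE 0.22, limma adjusted p 1), which was not called. Its values in Derlin-1 KO lay above those of controls without 4PBA. KO had -3.16 and -3.27 against -3.73 and -3.69 in the numbered and -3.50 and -3.55 against -4.40 and -4.26 in the lettered series, with no overlap in either; the change of 0.65 (SE 0.22) had an adjusted p of 0.0757 by limma and was not called. It was 0.31 (limma adjusted p 0.0758) with normexp background correction. With 4PBA it was 0.39 (SE 0.22, limma adjusted p 0.501), and 0.71 (limma adjusted p 0.0192) without the array labelled KO 4PBA b. Of 12 other MBT and SAM domain Polycomb genes tested, none was called in a Derlin-2 comparison and 1 was called in Derlin-1 KO without 4PBA, where Phc1 rose by 0.27 (SE 0.08, limma adjusted p 0.0487).

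St6galnac5 encodes a sialyltransferase of brain gangliosides. On the Derlin-2 slide it had -2.19 and -2.47 in controls with 4PBA and between -3.78 and -3.62 on the other 6 arrays. The gap was 1.15 on the slide and 0.62 against the other 22 arrays. The changes were 1.40 (SE 0.23) for 4PBA in controls and -1.39 (SE 0.23) for KO against control with 4PBA. With normexp background correction they shrank to 0.62 and -0.63, and neither was called. In all, the first lost its call in 6 and the second in 4 of 12 alternative settings. Scml4 and St6galnac5 were each other's most alike gene of 14265, with r 0.82 over 24 arrays, 0.96 over the Derlin-2 and 0.43 over the Derlin-1 arrays; both were selected on the same pair of arrays, so this is a description.

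The Derlin-1 counterparts of St6galnac5 were -0.08 (SE 0.17, limma adjusted p 1) and 0.04 (SE 0.17, limma adjusted p 0.948). Of 19 other sialyltransferases tested, St8sia2, which builds polysialic acid, was the only one called in a Derlin-2 comparison, at -3.00 (SE 0.31, limma adjusted p 0.000537) for KO against control with vehicle (-2.97 without KO vehicle 1) and -2.01 (SE 0.31, limma adjusted p 0.0255) for 4PBA in controls. St6galnac3, the nearest tested gene after St6galnac5, was not called in any of the 4. In Derlin-1 KO without 4PBA 2 of the 19 were called, beside 10.6% of all genes: St3gal2 fell by 0.43 and St8sia5 by 0.35 on the log2 scale.

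The 2 arrays of Derlin-2 controls with 4PBA also held least choroid plexus signal. The mean level of 9 choroid plexus markers, such as Ttr, was -0.84 and 0.36 there and between 0.80 and 1.78 on the other 6 Derlin-2 arrays. All 9 were higher in KO than control with 4PBA, with a median change of 1.93, and none was called. On the 16 Derlin-1 arrays that mean level ran from -2.65 to 1.95, Scml4 from -4.53 to -3.14 and St6galnac5 from -4.08 to -3.09. The part of the choroid plexus in Scml4, St6galnac5 or Rec8 was not tested.

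Hebp2, a haem-binding protein, was alike on 6 of the 8 Derlin-2 arrays and low on 2. Vehicle controls had -2.10 and -2.07, vehicle KO -0.91 and -0.86, controls with 4PBA -0.77 and -0.82 and KO with 4PBA -0.96 and -0.89. The low pair lay 1.11 under the slide's other arrays and 0.32 under the other 22. 4PBA against vehicle in controls gave 1.29 (SE 0.23), of which at least 98.1% was left without any 1 array, and it was the called change nearest the threshold in that comparison. On the disjoint arrays, 4PBA in Derlin-2 KO gave -0.04 (SE 0.23, limma adjusted p 0.975), and -0.06 (limma adjusted p 0.999) without KO vehicle 1. The change in controls was not called in 9 of 12 alternative settings, among them the replicate block, normexp, quantile normalization, the deposited value table and the removal of each of its 4 arrays.

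In Derlin-1 controls Hebp2 differed between 4PBA and none by -0.21 (SE 0.16, limma adjusted p 1), which was not called. The numbered arrays ran from -1.05 to -0.34 and the lettered from -1.74 to -1.02. Over 5 red blood cell genes the mean level was 3.86 and 4.20 in Derlin-2 vehicle controls and 3.29 to 4.36 on the other 6 arrays. The part of blood in the level of Hebp2 was not tested. None of 15 other genes of haem synthesis, transport and breakdown was called in a Derlin-2 comparison. In Derlin-1 KO without 4PBA 2 of the 15 were called, beside 10.6% of all genes: Alad fell by 0.48 and Fech by 0.20 on the log2 scale, both enzymes of haem synthesis.

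Bach2, a transcriptional repressor that pairs with small Maf proteins and is best known in lymphocytes, had -2.16 and -2.66 in Derlin-2 vehicle controls. The other groups had -1.72 and -1.55 in vehicle KO, -1.0 and -1.46 in controls with 4PBA and -1.32 and -1.50 in KO with 4PBA. The low pair lay 0.43 under the slide and 0.05 under the other 22 arrays, and its members differed from each other by more than that. 4PBA against vehicle in controls gave 1.18 (SE 0.20), 78.6% of it left without control vehicle 2. It was not called in 6 of 12 alternative settings, which were normexp (0.92), quantile normalization, probes well above background on all arrays, the Derlin-2 arrays fitted alone and the removal of control vehicle 2 or control 4PBA 1. On the disjoint arrays 4PBA in Derlin-2 KO gave 0.22 (SE 0.20, limma adjusted p 0.791), and 0.14 (limma adjusted p 0.999) without KO vehicle 1.

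In Derlin-1 controls Bach2 differed between 4PBA and none by 0.19 (SE 0.14, limma adjusted p 1), which was not called. KO against control without 4PBA gave 0.47 (SE 0.14, limma adjusted p 0.0528), just short of a call and higher in KO in both series (0.38 and 0.55). Of 18 other settings 4 gave a call, with limma adjusted p from 0.0186 to 0.451 over all of them. Of the 14 lymphocyte markers listed only 8 were measured. Of 10 partners, relatives and targets of Bach proteins tested, none was called in a Derlin-2 comparison; in Derlin-1 KO without 4PBA 2 of the 10 were called, beside 10.6% of all genes: Hmox1, haem oxygenase, rose by 0.75 (SE 0.17, limma adjusted p 0.0137) and Nfe2l1 by 0.27.

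**Figure D2:**
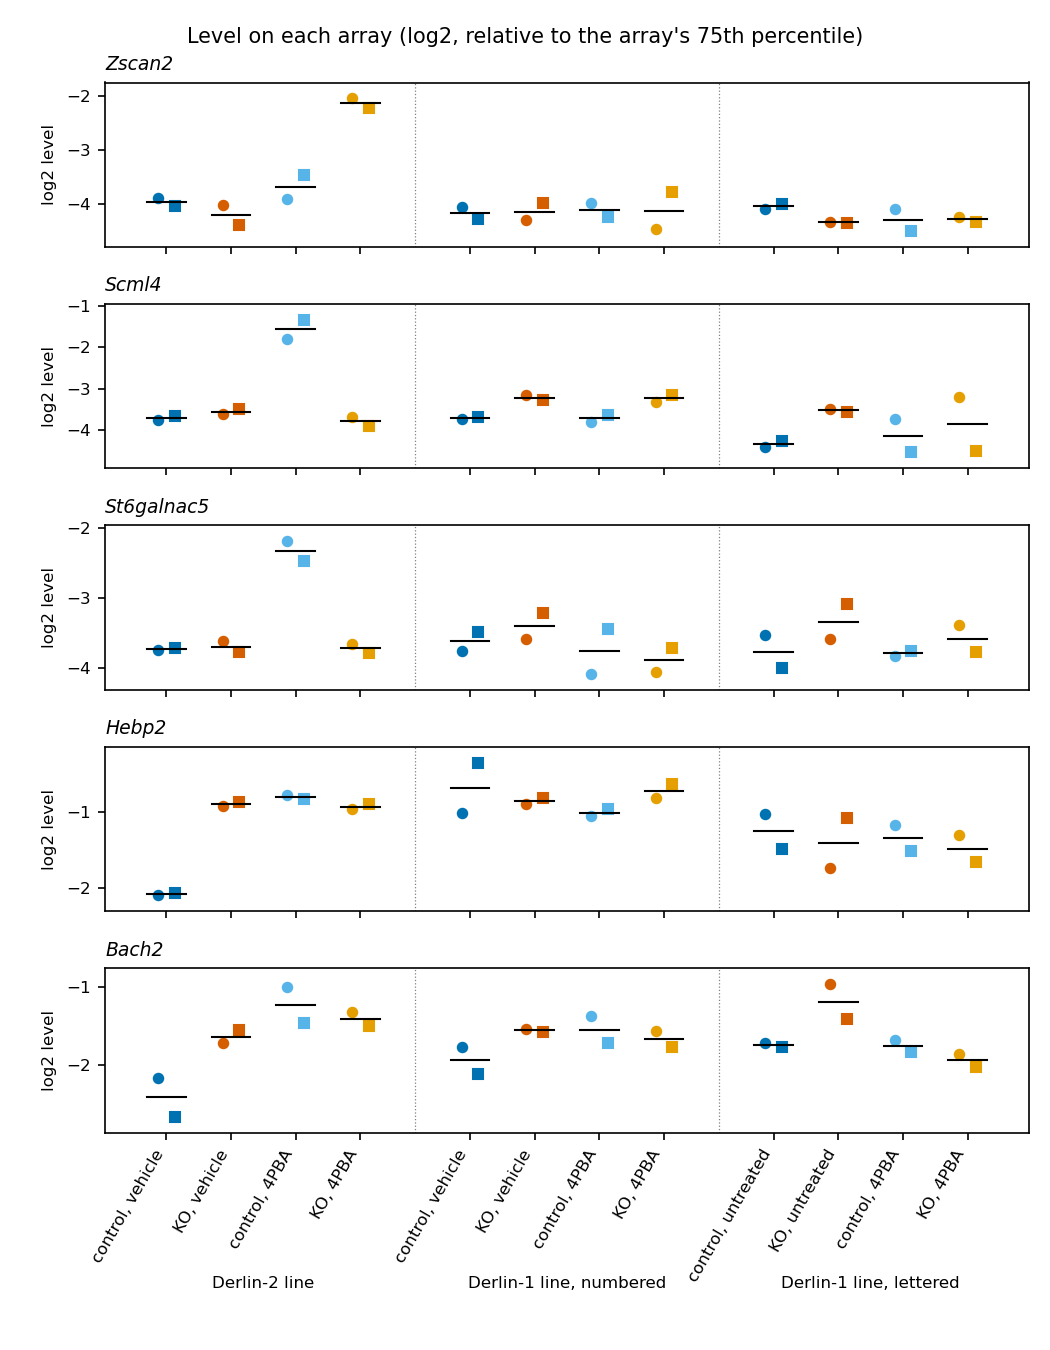
Levels of Zscan2, Scml4, St6galnac5, Hebp2 and Bach2 (log2 intensity relative to the array's 75th percentile) on 24 arrays in 12 groups, with circles and squares for the arrays of a group and a line at the group mean. Zscan2 stands out in Derlin-2 KO with 4PBA (-2.05 and -2.23), Scml4 and St6galnac5 in Derlin-2 controls with 4PBA, and Hebp2 and Bach2 are lowest in Derlin-2 vehicle controls.

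Rec8, the kleisin subunit of meiotic cohesin, varied more than any other of the 10, over a range of 4.30 across the 24 arrays. Derlin-2 vehicle controls had 1.47 and 1.26, vehicle KO 1.51 and 0.81, controls with 4PBA 2.93 and 2.89 and KO with 4PBA -0.75 and 1.08. The 16 Derlin-1 arrays lay between 2.75 and 3.55. Controls with 4PBA were therefore the only Derlin-2 group at the level of the Derlin-1 line, and the other 6 Derlin-2 arrays lay below every Derlin-1 array; the lines lay on different slides, so line and slide cannot be told apart.

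KO against control with 4PBA gave -2.74 (SE 0.38), a 6.70-fold lower intensity, and this change leaned most on 1 array. Without KO 4PBA 1 it was -1.83, or 66.7% of its size, and without KO 4PBA 2 it was -3.66. Of 12 alternative settings 1 lost the call, the Derlin-2 arrays fitted alone. Each other selecting change kept at least 78.6% of its size without any 1 array. On the disjoint arrays, Derlin-2 KO and control with vehicle differed by -0.20 (SE 0.38, limma adjusted p 0.948), or -0.55 (limma adjusted p 0.772) without KO vehicle 1. In the Derlin-1 line KO against control with 4PBA was 0.02 (SE 0.27, limma adjusted p 0.989) and 4PBA in controls -0.09 (SE 0.27, limma adjusted p 1).

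No other gene of the cohesin and meiotic axis list was called in a Derlin-2 comparison, out of 13 tested. Rec8's neighbours Irf9 and Ipo4 had changes between -0.20 and 0.12 there, while Irf9, a subunit of the interferon-induced transcription factor ISGF3, rose by 0.90 in Derlin-1 KO without 4PBA (limma adjusted p 0.0104). The genes most like Rec8 were 2410137M14Rik and Mboat2, both with r 0.85 over 24 arrays, but 0.23 and -0.23 over the 16 Derlin-1 arrays.

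**Figure D3:**
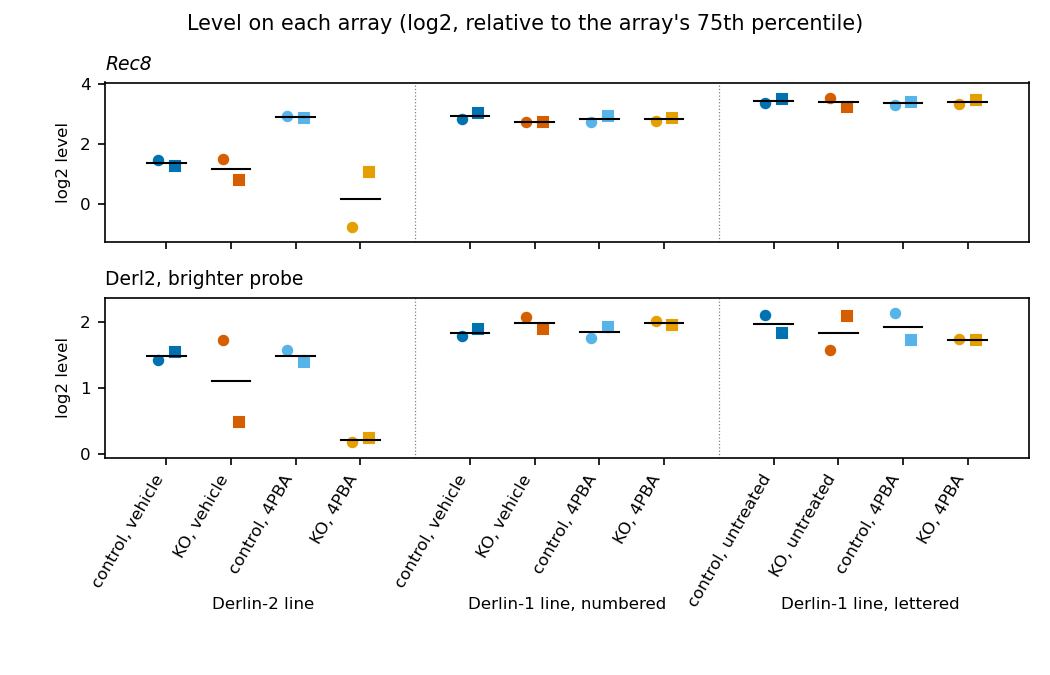
Levels of Rec8 and of the brighter Derl2 probe (log2 intensity relative to the array's 75th percentile) on 24 arrays in 12 groups, with circles and squares for the arrays of a group and a line at the group mean. Rec8 spans -0.75 to 2.93 on the Derlin-2 slide and 2.75 to 3.55 in the Derlin-1 line, and Derl2 is at a control's level (1.72) on the Derlin-2 array labelled KO vehicle 1.

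The 22 unfolded protein response genes listed had a median change of 0.35 in Derlin-2 KO against control with vehicle (18 higher, none called; 0.42 without KO vehicle 1). In Derlin-2 KO against control with 4PBA, where Derl2 was low on both KO arrays, all 22 were higher, with a median of 0.31, and none was called. In Derlin-1 KO without 4PBA all 22 were higher, with a median of 0.94, and 21 were called, in a comparison where 10.6% of all genes were called. There all 11 microglial markers were higher, 9 of them called (median 1.43), and 8 of 9 granule neuron markers were lower, 4 of them called (median -0.31). The part of such shifts in Ccdc154, Myh7b, Scml4 or Bach2 was not tested.

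Over all 10 genes, 40 tests were made in the Derlin-1 line and 2 were called, Ccdc154 and Myh7b in KO against control without 4PBA. That is 2 of 10 genes in a comparison where 10.6% of all genes were called. None of the 10 was called in the other 3 Derlin-1 comparisons, where 0.0472% of genes were called between KO and control with 4PBA, 0.0295% between 4PBA and none in controls and 0.0354% between 4PBA and none in KO. Without the array labelled KO 4PBA b, though, 2 of the 10, Ccdc154 and Scml4, were called between KO and control with 4PBA, in which 1047 genes (6.18%) were then called in place of 8. Without that array Scml4 was higher in KO, opposite in sign to the -2.22 that selected it in the same Derlin-2 comparison. Ccdc154 was not selected in that comparison. At an unadjusted p under 0.05 limma gave 11 of the 40 Derlin-1 tests. By comparison these were 5, 2, 1 and 3 of 10 members, beside 4517, 2166, 355 and 1127 of up to 16935 genes. The order is KO against control without and with 4PBA, then 4PBA against none in controls and in KO. Of the 4 tests on disjoint Derlin-2 arrays none was called, and none had an unadjusted p under 0.05. Among all genes, limma gave an unadjusted p under 0.05 for 1355 of 16934 (KO against control with vehicle) and 796 of 16925 (with 4PBA). For 4PBA in KO it was 1559 of 16928, and nothing is read from the 4 tests. The Derlin-1 and Derlin-2 lines share no array, but the comparisons within a line share groups.

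Correlations between members are given over all 24 arrays and over the 16 Derlin-1 arrays. Of genes selected on the same Derlin-2 arrays, Ccdc154 and Car11 had r 0.84 over 24 slide-centred arrays and 0.80 over the 16 Derlin-1 arrays, and Ccdc154 and Myh7b 0.74 and 0.68. Apold1 and Car11 had 0.70 and 0.13, Hebp2 and Bach2 0.48 and -0.36, and Scml4 and Rec8 0.64 and -0.30. Myh7b and Bach2 had -0.64 and -0.65; the comparisons that selected them share the Derlin-2 vehicle controls, in which Myh7b was highest and Bach2 lowest. The arrays share slides and groups, so these are descriptions. Mmp23 and Plk5 were the genes most like Ccdc154 outside the 10, with r 0.87 and 0.83, and 0.88 and 0.83 over the Derlin-1 arrays. Myh7b was most like Tmem97, Panx2 and Fdft1, each with r 0.78; Fdft1, squalene synthase, had a change of -0.43 in Derlin-2 KO with vehicle, and -0.39 without KO vehicle 1.

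**Figure D4:**
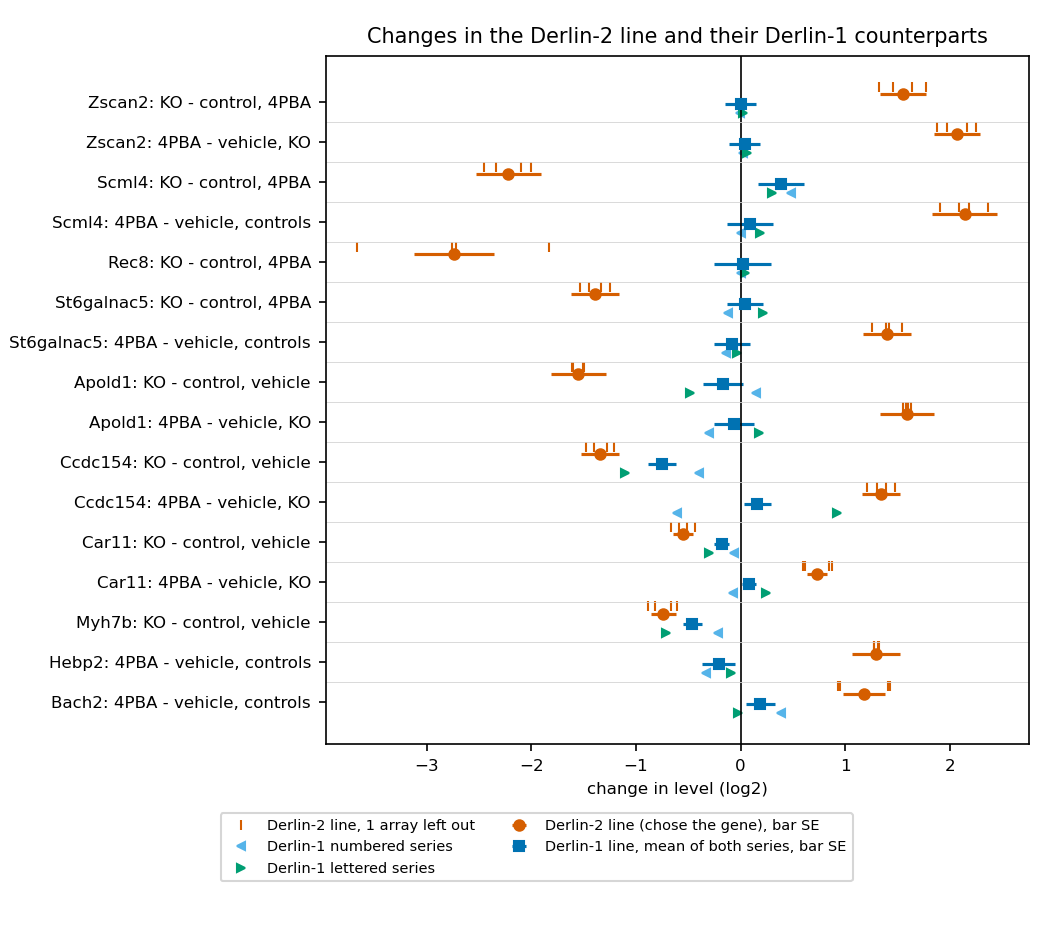
Changes in level (log2, x axis) that selected the 10 genes in the Derlin-2 line (orange circles with SE, ticks for the value with 1 array left out), beside the same comparison in the Derlin-1 line (blue squares with SE, triangles for the numbered and lettered series). Most Derlin-1 values lie near 0; Ccdc154 (-0.75) and Myh7b (-0.46) in KO against control without 4PBA lie on the same side as their Derlin-2 values.

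The other 3 probes added little. The second Scml4 probe (A_55_P2826159) was well above background on 2 of 24 arrays, the second Bach2 probe (A_55_P1956370) on 1 and the second Rec8 probe (A_55_P2929396) on none, and none passed the filter on dim probes, so each gene rests on a single probe. The probes used were well above background on all 24 arrays. The nearest tested genes on either side of the 10 on the chromosome were not called in any Derlin-2 comparison. Their lowest limma adjusted p was 0.0521, for Sec63 beside Scml4. Genes lying between these and the 10, where present, were not tested. The nearest genes on either side of the threshold, beside those named, were Gm10440 inside and H2-Oa outside for KO against control with 4PBA, Itgb1bp1 outside for 4PBA in controls, and Apold1 inside and Eml1 outside for 4PBA in KO.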

How the data were processed

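Total RNA of mouse cerebellum was labelled with Cy3 and hybridised to single-colour Agilent arrays. Per the file headers and the submitters' processing notes, the authors extracted each array's intensity with Agilent Feature Extraction 10.7.1.1, and the deposited processed signal is a linear, background-corrected intensity. The deposited value table held the same intensities on a linear scale, to within 1.74e-06 on the log2 scale for probes spotted once. The headers name the mouse build mm9; no coordinate of it was used.

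Each array's log2 processed signal was taken relative to its 75th percentile. Control spots and outlier-flagged spots (52 to 637 per array) were left out, and spots of a probe were averaged. A gene was read by its brightest probe past the filter on dim probes. limma 3.58.1 in R 4.3.3 fitted 12 group means over 24 arrays (12 residual degrees of freedom), two-sided, with Benjamini-Hochberg adjustment over up to 16935 genes. Derlin-1 comparisons averaged the numbered and lettered series with equal weight. The scripts were tested on simulated data. With 2 arrays per group the number of arrays limits precision; the median SE of a change was 0.15 on 1 slide and 0.11 averaged over the Derlin-1 series.

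The 10 genes and all gene lists were chosen with earlier results of these data known. The text names the 10 genes, the 3 derlins, the 3 most alike genes of each at most, chromosomal neighbours, called genes of each list or the one with the largest change, and the genes nearest the threshold; Npas4 was among the most alike. Alternatives were normexp background correction, quantile normalization, other probe filters, the deposited value table, every probe, a replicate block, 1 line or series alone, and each array left out. Because the files hold no mean signal column, normexp used the median signal and background with an offset of 50.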

Additional observations from a re-analysis of the deposited data

Results flagged for a closer look

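The change of Ccdc154 with 4PBA in Derlin-1 KO was -1.53 (SE 0.26) in the numbered minus the lettered series, a difference that was not called: both numbered arrays with 4PBA lay below both with vehicle, and both lettered arrays with 4PBA lay above both untreated. The limma test of the difference gave an unadjusted p of 3.5e-05 and an adjusted p of 0.148. The lettered array labelled KO 4PBA b had a control's level of Derl3. Without it the difference was -1.30 (SE 0.26, limma adjusted p 0.546), and without the other lettered KO 4PBA array, a, it was -1.76 (SE 0.26, limma adjusted p 0.00877), values added after seeing the data.

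Myh7b in Derlin-1 KO against control with 4PBA differed by 0.15 (SE 0.17) between the series, and KO lay above control on every numbered array and below it on every lettered one. The limma test of this difference gave an adjusted p of 1, and without KO 4PBA b the difference was 0.11 (SE 0.20, limma adjusted p 1).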

How the results depend on the processing

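Of 672 single-gene values over 44 results, 562 kept their direction and side of the threshold, 69 lost a call, 6 gained one and 35 changed sign. Of the 16 selecting calls, 15 were kept with every probe and without the filter, 14 with the deposited value table, 13 with the replicate block, 11 with quantile normalization, 9 with 1 line only, 9 with probes well above background on all arrays and 6 with normexp; with 1 array left out, 33 of 64 were kept. The labels state no pairing by replicate number, and over 18 pairs of groups the correlation of same-numbered deviations ran from -0.24 to 0.51, with 12 over 0.1, so numbers were not taken as pairs. The replicate block lost the calls of Car11 and Myh7b (Derlin-2 KO against control with vehicle) and Hebp2 (4PBA in Derlin-2 controls) and gained Bach2 in Derlin-1 KO without 4PBA (limma adjusted p 0.0186).

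Genes called for Derlin-2 KO against control with vehicle (20) numbered 4 with normexp, 31 without the filter, 2 with probes well above background on all arrays and 46 with every probe. For Derlin-2 KO against control with 4PBA (23) the same settings gave 15, 45, 7 and 65, and 1 line only 10. For 4PBA in Derlin-2 controls (22) they gave 11, 1279, 0 and 67, the replicate block 10 and 1 line only 10. For 4PBA in Derlin-2 KO (23) there were 1843 without the filter, 6 with probes well above background on all arrays, 59 with every probe, 35 with the deposited value table and 13 with 1 line only. For Derlin-1 KO against control without 4PBA (1800) there were 690 with 1 line only, 2 in the numbered series and 599 in the lettered one. For Derlin-1 KO against control with 4PBA (8) there were 0, 15, 1 and 24 in the order of the first sentence and 4 in the lettered series. For 4PBA in Derlin-1 controls (5) there were 0, 9, 0 and 13, 3 with the replicate block and 1 in the lettered series. For 4PBA in Derlin-1 KO (6) there were 0, 13, 1 and 20, and 2 in the lettered series. Where limma called 0 genes, the main settings had 874 (4PBA in Derlin-2 controls), 2166 (Derlin-1 KO against control with 4PBA), 355 and 1127 (4PBA in Derlin-1 controls and KO) genes at an unadjusted p under 0.05. The cause was not tested.

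Leaving out 1 array gave 20 to 82 (82 without KO vehicle 1), 41 to 60, 17 to 51 and 36 to 82 (82 without KO vehicle 1) for the Derlin-2 comparisons in the same order. For Derlin-1 it gave 654 to 2788 (without KO untreated a and b), 8 to 1047 (1047 without KO 4PBA b), 3 to 25 and 3 to 193 (193 without KO 4PBA a). Member effects that differed between the Derlin-1 series numbered 0 to 1, with 1 without KO 4PBA a.

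Zscan2 in Derlin-1 KO against control with 4PBA was -0.05 with quantile normalization, 0.00 with the deposited table and -0.01 in the numbered series, and -0.16 to 0.17 with 1 array left out; in 4PBA against none in Derlin-1 KO it ran from -0.13 to 0.21. Scml4 with 4PBA in Derlin-1 controls was 0.00 in the numbered series and -0.10 to 0.29 with 1 array left out. Rec8 was 0.00 in the numbered series for Derlin-1 KO against control with 4PBA (-0.03 to 0.06 with 1 array left out) and -0.55 to 0.15 for Derlin-2 KO against control with vehicle. St6galnac5 in Derlin-1 KO against control with 4PBA was 0.00 with normexp, -0.02 with quantile normalization and -0.12 in the numbered series (-0.12 to 0.20 with 1 array left out), and with 4PBA in Derlin-1 controls -0.24 to 0.08. Apold1 was 0.15 in the numbered series for Derlin-1 KO against control without 4PBA (-0.43 to 0.09 with 1 array left out) and 0.18 in the lettered for 4PBA in KO, with -0.32 to 0.20 on leaving out 1 array in the latter. In the numbered series 4PBA in Derlin-1 KO gave -0.61 for Ccdc154 and -0.07 for Car11, and in the lettered series 4PBA in controls gave -0.02 for Bach2. Myh7b in Derlin-2 KO against control with 4PBA was 0.00 to 0.21 with 1 array left out.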
